A study of Rattus norvegicus with 10 samples.

Results

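The genes described here are 10 precursors of neuropeptides: Npy, Sst, Penk, Pdyn, Tac1, Cck, Vip, Crh, Trh and Nts. They were taken by symbol from 16610 named rat genes in a matrix of 32041 RefSeq transcript rows, with the row of highest mean count kept where a symbol had several. Of these symbols 9 had a single row and Tac1 had 4. The rows were NM_012614 (Npy), NM_012659 (Sst), NM_017139 (Penk), NM_019374 (Pdyn), NM_012666 (Tac1), NM_012829 (Cck), NM_053991 (Vip), NM_031019 (Crh), NM_013046 (Trh) and NM_001102381 (Nts). The mRNA was sequenced from 5 sham operated rats (rats 1 to 5) and 5 stimulated rats (rats 6 to 10), and each library came from a different animal. All were male Sprague-Dawley rats of 290 to 320 g, and all 10 carried a bipolar electrode in the left lateral nucleus of the amygdala. After 2 weeks of recovery the stimulated rats received trains of 400 µA pulses at 60 Hz for 30 min through that electrode, were brought into status epilepticus (a seizure that does not end by itself) and were then given diazepam. The sham rats were matched for age and were not stimulated. Stimulated rats were watched by video EEG for 2 weeks before the end of the experiment. According to the study's methods, those enrolled had spontaneous seizures. The left hippocampal piece that holds CA3 and the dentate gyrus was collected 3 months after status epilepticus. The comparison asks how the precursors differ in the hippocampus of rats with this acquired epilepsy.

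A neuropeptide is first made as a long inactive protein, which is cut and modified inside dense-core vesicles and then released when a neuron fires in bursts. The peptides act on G protein-coupled receptors, at a distance from the release site and for longer than glutamate or GABA. In the hippocampus Npy, Sst, Vip and Cck are best known from GABAergic interneurons, whereas Pdyn and Penk are made by dentate granule cells and Trh is made mainly by neurons of the hypothalamus. Npy and Trh are known as genes that granule cells switch on after seizures, and neuropeptide Y and dynorphin dampen glutamate release.

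The sequence just upstream of the gene start is given for 3 precursors, as recorded by RefSeq for the rat build GRCr8. Trh and Npy are shown because they differed most between the rats, and Nts because it was the one precursor, of those in the table, with an AP-1 site, TGAGTCA, the motif bound by Fos and Jun proteins. Capitals mark AP-1 and the half-site TGACG of the cAMP response element (CRE), searched on both strands in the 250 bases before the start.
Npy, chr4:80211861-80212110, plus strand: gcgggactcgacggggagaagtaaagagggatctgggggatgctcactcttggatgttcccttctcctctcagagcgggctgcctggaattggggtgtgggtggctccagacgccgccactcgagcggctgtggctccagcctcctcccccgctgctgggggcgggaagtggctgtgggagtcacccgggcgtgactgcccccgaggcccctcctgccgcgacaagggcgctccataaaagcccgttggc
Trh, chr4:126301763-126302012, minus strand: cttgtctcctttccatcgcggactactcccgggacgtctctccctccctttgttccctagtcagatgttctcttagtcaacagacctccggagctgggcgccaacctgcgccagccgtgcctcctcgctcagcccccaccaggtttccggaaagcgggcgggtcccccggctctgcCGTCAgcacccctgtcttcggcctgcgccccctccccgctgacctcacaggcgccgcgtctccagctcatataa
Nts, chr7:39460889-39461138, minus strand: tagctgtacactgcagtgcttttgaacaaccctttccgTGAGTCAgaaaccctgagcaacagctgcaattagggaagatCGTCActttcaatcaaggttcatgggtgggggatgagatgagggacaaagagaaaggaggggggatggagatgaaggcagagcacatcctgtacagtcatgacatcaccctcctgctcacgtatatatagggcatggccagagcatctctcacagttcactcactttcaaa

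The RefSeq table held 7 of the 10 promoters. It did not hold Penk, Cck and Crh. The half-site occurred in 4 of the 7, those of Tac1, Vip, Trh and Nts, in 18.2% of all 33469 promoters of the table and in 26.6% of the 10742 that belong to tested genes. The full CRE TGACGTCA, which contains the half-site, occurred in 0 of the 7, in 1.59% of all promoters and in 2.78% of those of tested genes. AP-1 occurred in 1 of the 7, in 4.05% of all promoters and in 3.31% of those of tested genes. The TATA motif TATAAA occurred in 2 of the 7 (Pdyn and Vip), in 12.9% of all promoters and in 7.12% of those of tested genes. The upstream window of Npy held none of these 4 motifs. Only exact matches before the start recorded by RefSeq were counted, and sequence at other starts was not searched. A near match to the full CRE, such as tgacatca in the Nts window, was not counted. The 0 for the full CRE therefore does not show that the 7 genes, Sst among them, lack such a site.

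The libraries held 13552309 to 24086059 counted reads, and the share of unaligned reads was 32.8% to 37.1% in the sham rats, 32.0% and 35.6% in rats 7 and 6, and 41.4%, 42.9% and 45.1% in rats 8, 9 and 10. Leaving out rat 8, 9 or 10 gave log2 fold changes of 3.50, 3.21 and 3.08 for Npy and 7.47, 7.37 and 7.45 for Trh, and the part of the unaligned share in these values was not tested. One sham library, rat 2, stood apart from its group, since its correlation with its group mates averaged 0.972 against 0.981 to 0.983 for the rest. The 5 stimulated libraries were less alike, at 0.961 to 0.968, with rat 7 lowest. Without rat 2 the log2 fold changes given next were 3.14 for Npy and 7.22 for Trh, against 3.22 and 7.17 with all 10 rats. Of 8 markers of dentate granule cells 5 were tested and were present in every library, with a summed level of 324 to 400 counts scaled to a library of 1000000 reads (CPM) in the sham rats and 240 to 444 CPM in the stimulated rats. Of 10 markers of hypothalamus and amygdala, Otp, Pmch, Nr5a1 and Tfap2d were below the low-count filter. The other 6 passed it, with a summed level of 6.58 to 12.0 CPM in sham and 8.22 to 12.8 CPM in stimulated rats, and at an unadjusted p under 0.05 2 were higher (Hcrt and Avp) and 1 lower (Pomc). Their part in the values given next was not tested.

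Levels are CPM of the library after TMM scaling and are compared between rats for 1 gene and not between genes because no transcript lengths were used. All 10 precursors passed the filter, a summed count of at least 46 over the 10 libraries, and their sham counts alone also passed it, from 66 for Trh to 18911 for Pdyn. In edgeR's quasi-likelihood test over 22447 features, 0 of 10 precursors had a Benjamini-Hochberg adjusted p under 0.05, and 0% of all features did. DESeq2 called 1 precursor, edgeR's likelihood ratio test 2, edgeR's exact test 2 and limma-voom 0. Among all features, DESeq2 called 29 higher and 3 lower, and limma-voom 0 in either direction. The likelihood ratio test called 111 features higher and 8 lower, and the exact test 83 and 6. At an unadjusted p under 0.05, Npy and Trh were higher and 0 precursors were lower, against 6.7% of all features higher and 3.16% lower. The same 2 genes were the only precursors higher at an unadjusted p under 0.001, which 0.156% of all features reached. With edgeR's robust empirical Bayes setting their unadjusted p was 0.00897 (Npy) and 0.00914 (Trh), with an adjusted p of 0.480 for both. The fitted value was higher in stimulated rats for 6 precursors and lower for 4, with a median log2 fold change of 0.24 against 0.01 over all features.

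**Figure D1:**
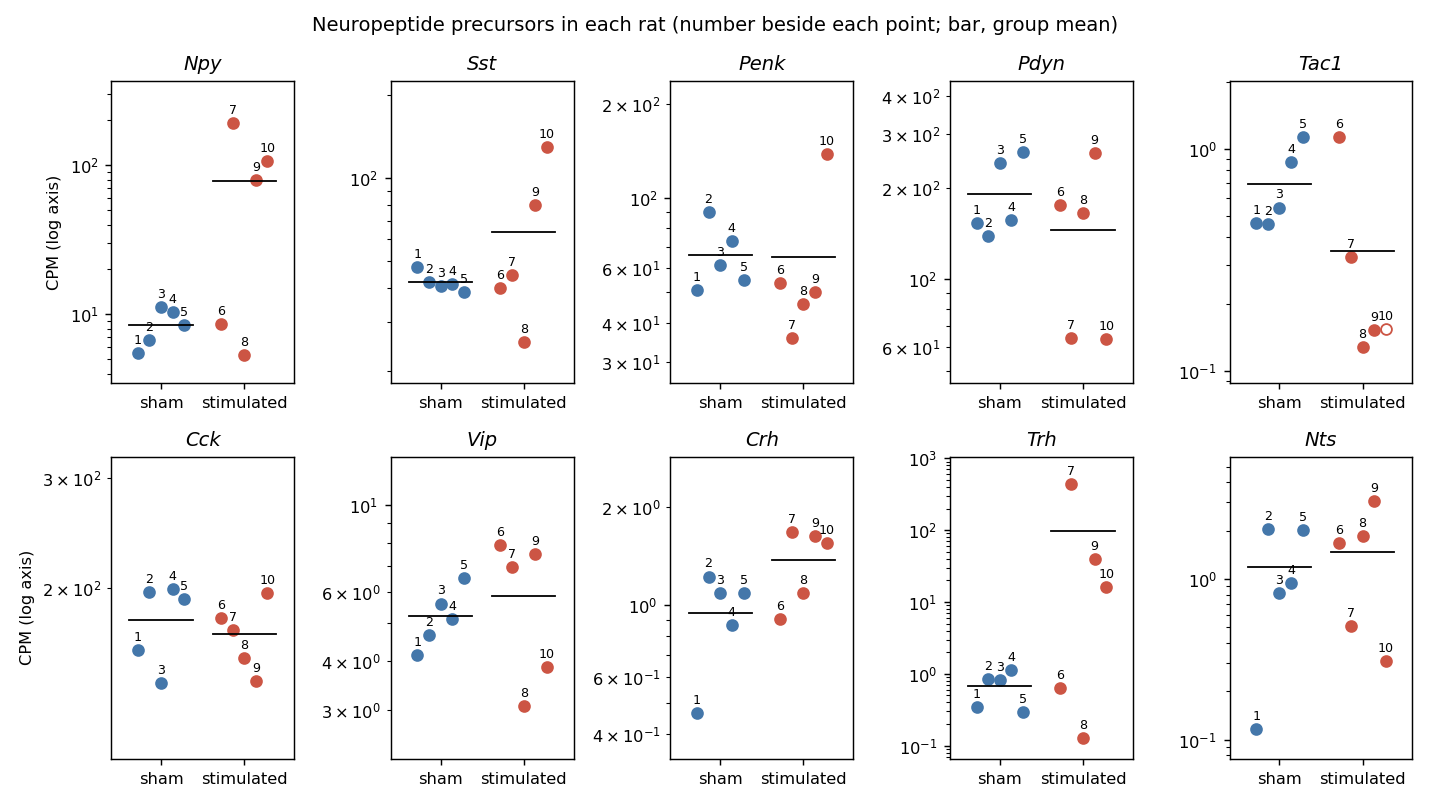
CPM of each precursor in each rat on log axes, with sham rats 1 to 5 at the left and stimulated rats 6 to 10 at the right of each panel, the rat number beside each point and bars at the group means. Npy and Trh lie far above the sham rats in rats 7, 9 and 10 only, and the open Tac1 point of rat 10 is a count of 0 drawn at 3 counts (0.155 CPM).

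Trh, the precursor of thyrotropin-releasing hormone, was listed at 0.349, 0.84, 0.816, 1.12 and 0.293 CPM in sham rats 1 to 5, and at 0.633, 438, 0.128, 39.7 and 16 CPM in stimulated rats 6 to 10. Rats 7, 9 and 10 stood above all sham rats, rat 6 lay within their range and rat 8 below it. Against the sham mean of 0.683 CPM, the levels of rats 7, 9 and 10 were 642, 58.1 and 23.5 times as high. That sham mean rests on few reads, with counts of 6, 11, 15, 27 and 7 in rats 1 to 5. Rat 8 had a count of 2, and its 95% counting interval of 0.0155 to 0.461 CPM reached into the sham range. The fitted log2 fold change was 7.17 (SE 1.65), with an unadjusted p of 0.000715 and an adjusted p of 0.376 in edgeR's quasi-likelihood test, and without rat 7 it was 4.35 (SE 1.05). The mean log2 CPM differed by 3.59, with p = 0.151 in a two-sided exact permutation test over all assignments of 5 of the 10 rats, whose smallest possible p is 0.00794.

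Npy, the precursor of neuropeptide Y, had 5.53, 6.72, 11.2, 10.3 and 8.42 CPM in the sham rats, and 8.6, 192, 5.36, 80.2 and 107 CPM in the stimulated rats. As with Trh, rats 7, 9 and 10 stood above all sham rats, at 22.8, 9.51 and 12.7 times the sham mean, and rats 6 and 8 did not. The order of the 3 rats differed between the genes: rat 9 was higher than rat 10 in Trh and lower in Npy. The mean was 8.43 ± 2.38 CPM (SD, n = 5) in sham and 78.8 ± 77.5 CPM (SD, n = 5) in stimulated rats. The log2 fold change was 3.22 (SE 0.748) with an adjusted p of 0.376 in edgeR's quasi-likelihood test, and leaving out any single rat gave 2.56 to 3.50, the lowest without rat 7. The difference of mean log2 CPM was 2.20, with p = 0.135 in the exact permutation test. Among all 22447 features, ranked by unadjusted p, Trh was 25th and Npy 27th.

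**Figure D2:**
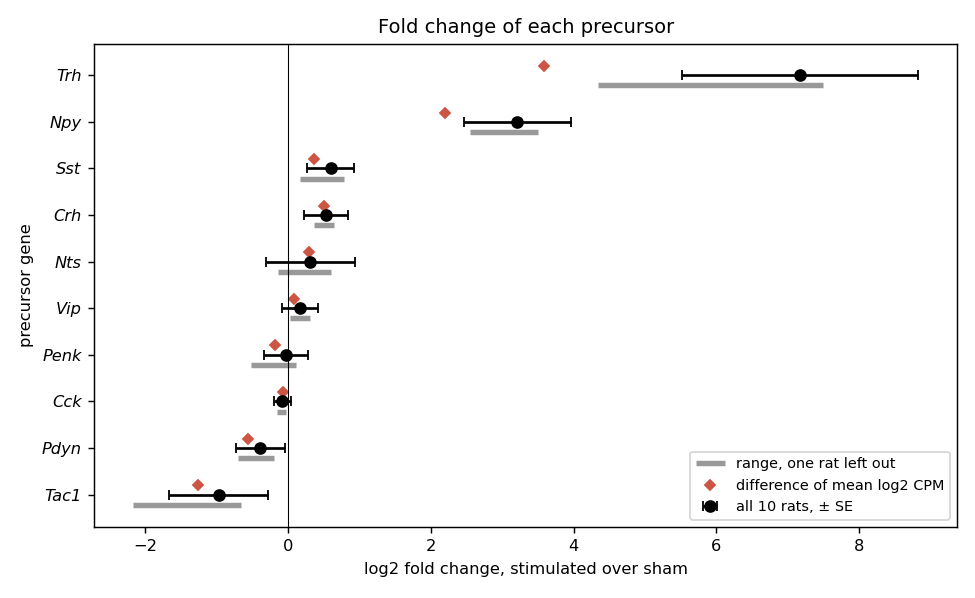
Log2 fold change of stimulated over sham for each precursor, with black points and bars for the edgeR estimate and its SE over 10 rats, grey bars for the range over fits that leave out 1 rat, and diamonds for the difference of mean log2 CPM. Trh and Npy lie furthest to the right of 0. The points, grey bars and diamonds of Sst, Vip and Crh are also right of 0, but the SE bar of Vip crosses it. The grey bars of Penk and Nts cross 0.

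Rats 7, 9 and 10 also had the highest levels of Fos, an early gene transcribed soon after neurons fire, at 106, 50.3 and 61.7 CPM, while rats 6 and 8 had 5.61 and 5.24 CPM and the sham rats 3.26 to 5.32 CPM. Vgf, which encodes a secreted granule protein, had 281 to 285 CPM in the same 3 rats and 46.3 to 72.1 CPM in the other 7. Each of 10 early genes listed (among them Fos, Fosb, Egr2, Arc and Egr4) was higher at an unadjusted p under 0.05, with a median log2 fold change of 2.18, and 0 had an adjusted p under 0.05 in edgeR's test. The time from the last seizure to tissue collection is not known here for single rats, and whether Npy and Trh follow it was not tested. Astrocyte markers moved with the same rats as well: the summed level of 7 markers was 3451 to 3923 CPM in sham rats and 3519 to 8798 CPM in stimulated rats, with rats 7 and 10 highest, and 4 of the 7, Gfap with a log2 fold change of 1.06 among them, were higher at an unadjusted p under 0.05. The part of these cells in the Npy and Trh values was not tested. Because this is bulk tissue, fewer cells of a type and less RNA per cell cannot be told apart.

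**Figure D3:**
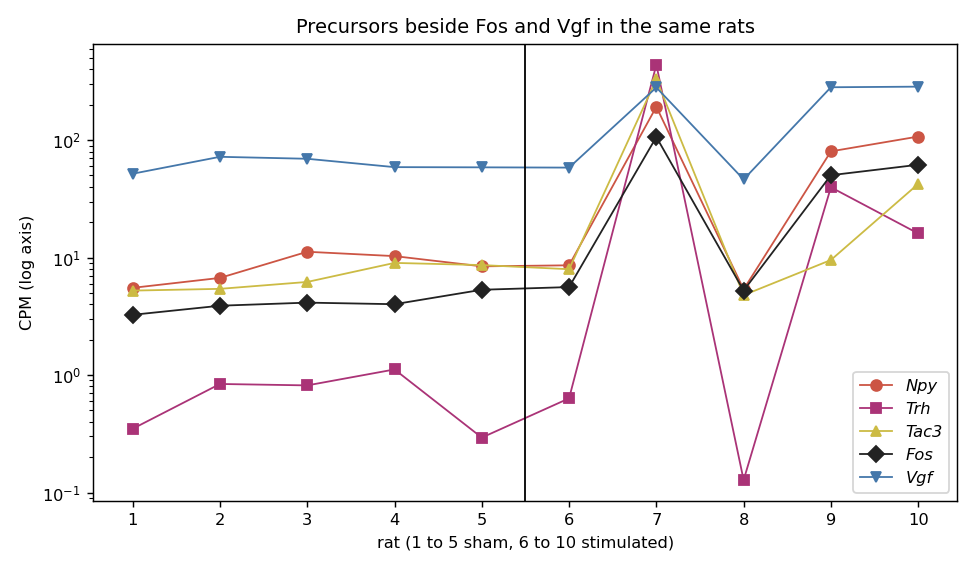
CPM of Npy, Trh, Tac3, Fos and Vgf in each rat on a log axis, with sham rats to the left of the vertical line and lines joining the rats only to guide the eye. Npy, Trh, Tac3 and Fos peak in rat 7, Vgf is about as high in rats 9 and 10 as in rat 7, the 5 genes are not raised to that extent in rats 6 and 8, and in rat 9 Tac3 (9.54 CPM) is close to the highest sham rat (9.01 CPM).

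Sst, the precursor of somatostatin, marks interneurons of the hilus and inhibits release from other cells. Its level was 47.5, 42, 40.8, 41.4 and 38.6 CPM in the sham rats and 39.8, 44.4, 25.4, 79.6 and 130 CPM in the stimulated rats. Rats 9 and 10 were high and rat 8 was low, so that the groups overlapped. The log2 fold change was 0.60 (SE 0.328, adjusted p = 0.56 in edgeR's quasi-likelihood test). It was 0.17 without rat 10, and 0.72 and 0.79 without rats 6 and 8. In the last 2 fits the unadjusted p fell under 0.05 (0.0486 and 0.0127), but the adjusted p was 0.354 and 0.243 in the same test. The spread between stimulated rats was wide, with an SD of 41.9 CPM against 3.28 CPM in the sham rats, and rat 7, the highest for Npy and Trh, was near the sham mean. The 11 interneuron markers, Cnr1, Gad1 and Kit among them, had a summed level of 706 to 798 CPM in sham and 611 to 809 CPM in stimulated rats. In edgeR's test 0 of the 11 had an unadjusted p under 0.05, and their median log2 fold change was -0.21.

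Vip, the precursor of vasoactive intestinal peptide, marks interneurons that inhibit other interneurons. It had 4.13 to 6.5 CPM in the sham rats and 7.92, 6.97, 3.07, 7.5 and 3.87 CPM in the stimulated rats. Rats 6, 7 and 9 were above all sham rats and rats 8 and 10 below them. The 95% counting intervals of rats 7 (5.90 to 8.17 CPM) and 9 (6.34 to 8.81 CPM) held the highest sham level. That of rat 10 (3.04 to 4.85 CPM) held the lowest sham level. The log2 fold change was 0.17 (SE 0.252, adjusted p = 0.858 in edgeR's quasi-likelihood test). Crh, which encodes corticotropin-releasing hormone, the start of the stress axis, was at 0.465 to 1.22 CPM in sham and 0.905, 1.67, 1.09, 1.63 and 1.55 CPM in stimulated rats. Rats 7, 9 and 10 lay above all sham rats, but the gene had a mean count of only 22.6 per library, and its log2 fold change of 0.54 (SE 0.31) had an adjusted p of 0.579 in edgeR's quasi-likelihood test and p = 0.0873 in the exact permutation test.

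Cck, which encodes cholecystokinin, a peptide of basket interneurons and of some pyramidal cells, was the most even precursor. Its level was 141 to 199 CPM in the sham rats and 142 to 196 CPM in the stimulated rats. No stimulated rat lay outside the sham range. The mean was 178 ± 25.9 CPM (SD, n = 5) and 169 ± 21.2 CPM (SD, n = 5), and the log2 fold change was -0.08 (SE 0.115, adjusted p = 0.866 in edgeR's quasi-likelihood test). It was the one precursor with a smaller SD of CPM in stimulated rats. The other 9 had a larger one, as did 69.3% of all features. On log2 CPM, Crh (SD 0.490 in sham, 0.369 in stimulated rats) and Nts (1.34 and 1.23) also had a smaller SD in stimulated rats.

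Pdyn, the precursor of the dynorphins, opioid peptides that granule cells release from mossy fibres onto kappa receptors, had 153, 139, 241, 156 and 262 CPM in sham rats and 175, 64.1, 165, 260 and 63.5 CPM in stimulated rats. Rats 7 and 10 were below all sham rats while rat 9 was close to the highest of them. The log2 fold change was -0.39 (SE 0.342, adjusted p = 0.734 in edgeR's quasi-likelihood test). Without rat 9, the highest of the stimulated rats, it was -0.70, with an unadjusted p of 0.0451 and an adjusted p of 0.564 in the same test. Rats 7 and 10 also had the lowest summed granule cell markers, 239.8 and 273.7 CPM, and rat 9 the highest, 443.7 CPM, and the part of this in the Pdyn values was not tested.

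Penk, the precursor of the enkephalins, opioid peptides of granule cells and of entorhinal input fibres, had 50.8, 90.5, 61.1, 72.8 and 54.8 CPM in sham rats and 53.5, 35.6, 45.9, 50.2 and 138 CPM in stimulated rats. Rats 7, 8 and 9 were below all sham rats and rat 10 above them. Rat 9 was only just below, since its 95% counting interval of 47.1 to 53.4 CPM held the lowest sham level. The group means were close, 66.0 ± 16.0 CPM (SD, n = 5) in sham and 64.7 ± 41.7 CPM (SD, n = 5) in stimulated rats. The log2 fold change was -0.03 (SE 0.307, adjusted p = 0.986 in edgeR's quasi-likelihood test). Without rat 10, the only rat above all sham rats, it became -0.51 (SE 0.171, unadjusted p = 0.011, adjusted p = 0.489 in the same test). The opioid precursors thus parted in rat 10, which had the highest Penk of all 10 rats and a Pdyn level below all sham rats. In rat 7 both were below all sham rats. In rat 9 Pdyn, at 260 CPM, was near the highest sham rat, while Penk lay just below the lowest. Rat 10 also had the highest summed markers of choroid plexus (35.0 CPM, sham rats 3.56 to 18.1 CPM) and of endothelial cells (294.5 CPM, sham rats 157 to 171 CPM), whose part in the Penk and Sst values was not tested. The 6 striatal markers summed to 128.9 CPM in rat 10 and 123 to 149 CPM in the sham rats, a sum that is mostly Ppp1r1b, whereas their mean log2 CPM was highest in rat 10, at 3.03 against 2.53 to 2.78 in the sham rats. Their part in the Penk value was not tested either.

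**Figure D4:**
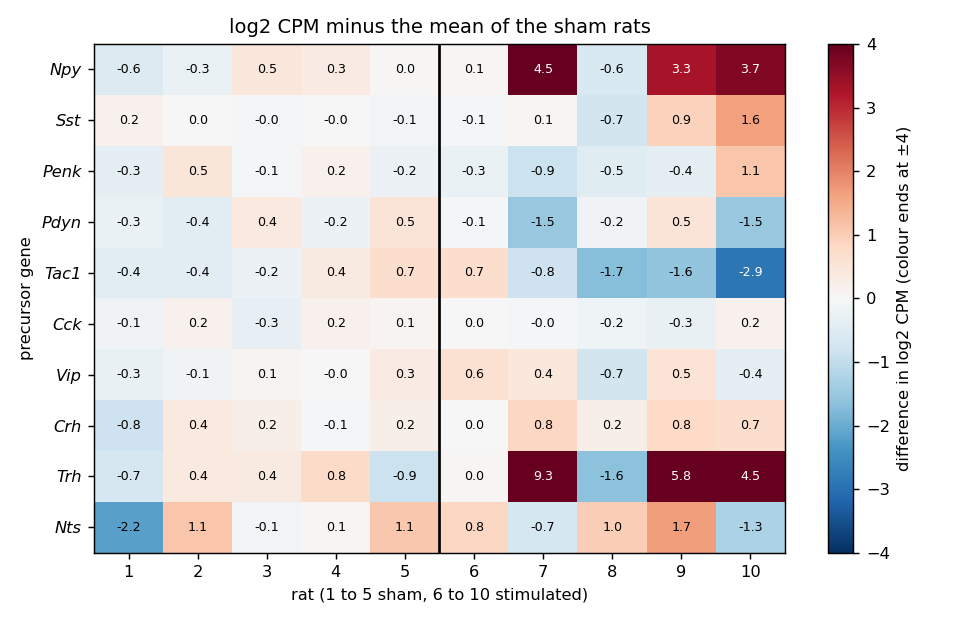
Log2 CPM of each precursor minus the mean of the sham rats, for each rat, with red above and blue below the sham mean and colours ending at 4. Rats 7, 9 and 10 are red for Npy and Trh, while Pdyn is blue in rats 7 and 10 and Penk is red in rat 10 only among the stimulated rats.

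Tac1, the precursor of substance P and neurokinin A, was near the detection limit, with counts of 8, 6, 10, 21 and 27 in sham rats and 25, 7, 2, 3 and 0 in stimulated rats. A count of 0 in rat 10 has a 95% counting interval that reaches 0.19 CPM, counting error only. Rat 6 was level with the highest sham rat at 1.13 CPM, and the other stimulated rats were below all sham rats. The log2 fold change was -0.96 (SE 0.694, adjusted p = 0.665 in edgeR's quasi-likelihood test), with p = 0.0635 in the exact permutation test. Without rat 6 it was -2.16 (unadjusted p 0.00539 and adjusted p 0.171 in edgeR's quasi-likelihood test). The groups then no longer overlapped, which was certain beforehand because rat 6 was the only stimulated rat not below all sham rats. The 4 Tac1 rows, which can share reads, summed to 22 to 81 counts in sham rats and to 98, 9, 8, 18 and 0 in stimulated rats, with rats 7 to 10 again below all sham rats. Nts, the precursor of neurotensin, ranged from 0.116 to 2.06 CPM in sham and from 0.31 to 3.06 CPM in stimulated rats on a mean count of 25.8, and its log2 fold change of 0.31 (SE 0.624) had an adjusted p of 0.902 in edgeR's quasi-likelihood test.

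The groups overlapped for all 10 precursors, whereas over all features 0.695% lay wholly higher and 0.597% wholly lower in stimulated rats. Counting rats in place of groups, a rule chosen after the values were seen, at least 3 stimulated rats lay above all sham rats for 4 precursors (Npy, Vip, Crh and Trh) and below all of them for 2 (Penk and Tac1), against 14.8% and 13.2% of all features. Penk reached this count only through rat 9, at 50.2 CPM against 50.8 CPM in the lowest sham rat, a gap within counting error. Tac1 rests on counts of 7, 2, 3 and 0. For Crh, the 95% counting intervals of rats 7, 9 and 10 began at 1.17, 1.12 and 1.04 CPM, below the highest sham level of 1.22 CPM. For Vip, those of rats 7 and 9 began at 5.90 and 6.34 CPM, below the highest sham level of 6.50 CPM.

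The genes whose log2 CPM followed a precursor most closely over the 10 rats were picked as the highest of all named features tested, so that their r is a description. For Npy they were Tspan5 (Pearson r 0.991), Pam (0.984), the enzyme that amidates many peptides, and Fos (0.980). For Trh they were Tmem97 (0.983), Timp1 (0.981), an inhibitor of metalloproteinases, and Stat3 (0.980). Pdyn went with Synpr (0.964), a synaptic vesicle protein of mossy fibres, Frzb and Kcna6, Penk with Susd4 (0.968), Mmp17 and Mcoln1, and Sst with Pbxip1 (0.945) and Igsf9. The high values for Npy and Trh come from the same rats 7, 9 and 10, and all 10 points share the library scaling. The remaining precursors were followed most closely by Bccip, Pcyox1 and Morf4l1 (Tac1), Atox1, Rpain and Mrpl10 (Cck), Prepl, Samd5 and Mtpn (Vip), Lmx1a, Gpr160 and Gbp2 (Crh) and Stoml3, Cmc1 and Kcnc2 (Nts).

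Around the precursors stand the genes that package, cut, sense and remove peptides. Of 40 other neuropeptide precursors listed, 23 were tested, and at an unadjusted p under 0.05 4 were higher and 3 lower, with a median log2 fold change of -0.02. Tac3, which encodes neurokinin B, was higher (log2 fold change 3.50, SE 0.995), with 329 CPM in rat 7, 42.4 CPM in rat 10 and 4.79 to 9.54 CPM in rats 6, 8 and 9. Hcrt, the orexin precursor, was higher (1.06, SE 0.298), as was Cartpt (1.83, SE 0.558), the precursor of CART peptides. Pomc, the precursor of melanocortins and endorphin, was lower (-1.08, SE 0.389), as was Calca (-1.15, SE 0.451), which encodes CGRP and calcitonin, on a mean count of 9.2. Among 19 tested granule proteins and processing enzymes, 4 were higher and 0 lower at the same threshold: Vgf (1.62, SE 0.436), Furin (0.62, SE 0.243), Pam (0.47, SE 0.175) and the granin Chgb (0.46, SE 0.16). Their list had a median of 0.05.

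Of 25 receptors of the 10 peptides, 21 were tested, and at an unadjusted p under 0.05 0 were higher and 2 lower. Trhr, the receptor for TRH, had a log2 fold change of -0.74 (SE 0.27), with 5.95 to 8.13 CPM in sham and 1.76 to 6.83 CPM in stimulated rats. Ntsr1, a neurotensin receptor, had -1.58 (SE 0.578). The median over the receptors was -0.18. Of 10 genes that end peptide signals, among them the peptidases Thop1, Prep and Ece2, 0 were called in either direction, with a median of -0.02. No gene of these lists had an adjusted p under 0.05 in edgeR's quasi-likelihood test.

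**Figure D5:**
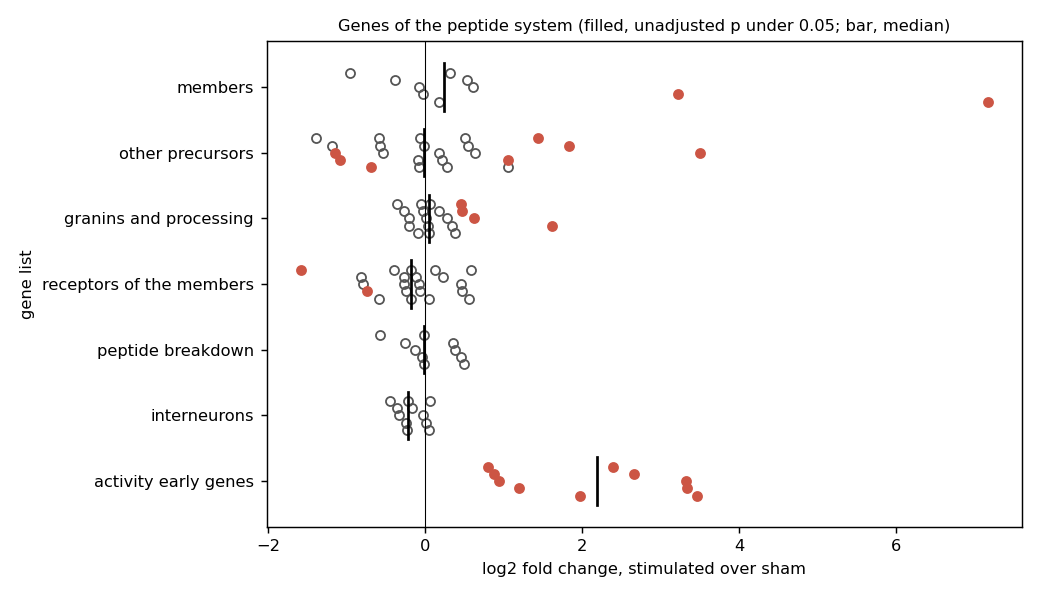
Log2 fold change of stimulated over sham for each tested gene of 7 lists, with filled points for an unadjusted p under 0.05 and a black bar at the median of each list. Early genes lie to the right (median 2.18), while the medians of the other lists lie between -0.21 and 0.24.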

How the data were processed

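Poly-A mRNA of 10 hippocampal samples was sequenced over 36 cycles on a Genome Analyzer IIx. The authors aligned reads to RN4 with BWA and deposited raw read counts per RefSeq transcript, not normalized; the handling of strand and of shared reads is not given in the sources used here, so transcripts of one gene or overlapping genes cannot be told apart. The study states 4 stimulated samples for this assay, but the labels give 5, and all were used.

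Symbols came from the RefSeq table of GRCr8. Rows with a summed count under the 30th percentile (46) were left out, leaving 22447 features. Counts were scaled by TMM and tested with edgeR 4.0.16 (glmQLFit, glmQLFTest, R 4.3.3), with Benjamini-Hochberg adjustment over all features; SE is the log2 fold change divided by the square root of F. Log2 CPM used a prior count of 2. Exact permutation tests were two-sided. The test was tried on simulated data with the same spread for every gene and the same shift in every stimulated rat. Npy and Trh were raised in only some of those rats, so the simulation does not show how the test handles such a pattern. Alternatives were other scaling, other filters, DESeq2 1.42.0, limma-voom (limma 3.58.1), 2 further edgeR tests, summed rows and leaving out each rat. Others were edgeR's robust empirical Bayes setting, its adjusted deviances and leaving out ribosomal RNA records. All 10 precursors were named, with up to 5 genes of each other list at an unadjusted p under 0.05, or the 3 of highest mean CPM where there were none, and the 3 genes most like each precursor; 1 such gene is not reported here. Precursors and gene lists were chosen with earlier results of these data known, and motifs, figures and the rule on 3 rats after the values were seen.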

Additional observations from a re-analysis of the deposited data

Results flagged for a closer look

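Each precursor was checked on the CPM scale, in each group of 5 rats, for a sample whose gap to its nearest neighbour exceeded 0.71 of the group's range. Of 20 groups tested, 3 had one, and chance gives about 1 where values are normally spread. In Trh, stimulated rat 7 was high, with a gap of 0.910 of the range. In Penk, stimulated rat 10 was high, with a gap of 0.826. In Tac1, stimulated rat 6 was high, with a gap of 0.713. On log2 CPM, a scale added after the values were seen, 0 of the 20 groups passed the same limit, and the gaps were 0.318 for Trh, 0.701 for Penk and 0.426 for Tac1.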

How the results depend on the processing

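No paired analysis was made because the sham and stimulated rats were different animals and the labels give no pairs. Log2 fold changes kept their direction in the 24 alternatives for 8 of 10 precursors, all but Penk and Nts. Penk was 0.0027 with library size alone in place of TMM, and leaving out 1 rat gave -0.51 to 0.12; the same for Nts gave -0.14 to 0.61. The fold change of Npy (3.22) had an adjusted p of 0.0107 in edgeR's likelihood ratio test and 0.0133 in its exact test. That of Trh (7.17) had an adjusted p of 0.00384 in DESeq2, 0.00473 in the likelihood ratio test and 0.00649 in the exact test; over all fits the adjusted p ranged from 0.0107 to 0.661 for Npy and from 0.00384 to 0.712 for Trh. Precursors with an adjusted p under 0.05 numbered 1 in DESeq2 (Trh) and 2 in each of these edgeR tests. Of all features, DESeq2 called 29 higher and 3 lower, the likelihood ratio test 111 and 8, and the exact test 83 and 6. With limma-voom 1 precursor was higher at an unadjusted p under 0.05 (Npy, not Trh with p 0.258) and 1 lower (Tac1). Leaving out 1 rat gave 2 to 3 precursors higher at that threshold (Sst added without rat 6 or 8). It gave 0 to 1 lower (Tac1, Pdyn or Penk without rat 6, 9 or 10) and 0 to 1 not overlapping (Tac1 without rat 6). In these fits 0 precursors had an adjusted p under 0.05. The shares of all features at the unadjusted threshold are not given for these fits, so their counts have no background beside them. Why the tools differ was not tested. Depth limits Tac1, Crh and Nts, whose mean counts were 10.9, 22.6 and 25.8 per library. It also limits Trh in the sham rats, which had 66 counts together, and in rat 8, which had 2.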
